A study of Homo sapiens with 9 samples.

Results

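The iron uptake, storage and export genes described here are 10 genes of cellular iron handling chosen by name. They are TFRC, SLC11A2 and STEAP3 for uptake, FTH1, FTL and NCOA4 for storage and release, SLC40A1 for export, IREB2 and ACO1 for sensing, and HMOX1 for the breakdown of heme. All 10 were present in the count table, which lists 58735 genes, and 9 of them were among the 15555 genes with enough counts to be tested. HMOX1, with 2 to 11 counts per library, was not. They were measured in VCaP, a cell line established from a prostate cancer, labelled wild type and grown with the androgen DHT in every group. The cells received siCtrl, a control siRNA, or one of the siRNAs siCDO1A and siCDO1C against CDO1, and poly(A) RNA was sequenced from 3 libraries per group. CDO1 encodes cysteine dioxygenase, which oxidizes cysteine. The labels number the 3 libraries of a group as biological replicates and give each number as a batch, but not whether the transfections were separate, so p-values measure the spread between these libraries. All results come from 1 cell line.

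Iron enters most cells bound to transferrin, through the transferrin receptor, and is reduced and moved out of the endosome into the cytosol. Iron that is not used is stored inside ferritin, a shell of heavy and light chains, and is released when ferritin is carried to the lysosome by the receptor NCOA4. Ferroportin is the exporter. Labile ferrous iron drives lipid peroxidation, and the balance of these steps is known to set how easily a cell dies by ferroptosis. When iron is scarce, the iron regulatory proteins bind short hairpins in mRNAs, called iron responsive elements, and thereby block the translation of ferritin and ferroportin and protect the transferrin receptor mRNA from decay.

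The hairpins of 4 members are shown because they are what the iron regulatory proteins bind, and because those of TFRC, in the 3′ untranslated region, are known to act on the amount of mRNA, which is what RNA-seq measures. They were found in the sense strand of annotated transcripts (GENCODE on GRCh37) as a C, a stem of 5 bases, the loop CAGTGN and 5 bases that pair with the stem, G-T pairs allowed. The loop is in capitals, and positions count from 1 at the 5′ end of the canonical transcript. They span the stem and loop from the C to the last paired base, and 6 more bases are printed on each side.
FTH1, 5′ untranslated region, 39 to 55: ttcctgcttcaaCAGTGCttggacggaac
FTL, 5′ untranslated region, 33 to 49: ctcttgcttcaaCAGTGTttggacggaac
SLC40A1, 5′ untranslated region, 104 to 120: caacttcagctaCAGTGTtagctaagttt
TFRC, 3′ untranslated region, 3295 to 3311: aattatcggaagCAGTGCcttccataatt
TFRC, 3′ untranslated region, 3699 to 3715: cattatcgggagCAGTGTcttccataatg
TFRC, 3′ untranslated region, 3764 to 3780: ctgtatcggagaCAGTGAtctccatatgt
TFRC, 3′ untranslated region, 3811 to 3827: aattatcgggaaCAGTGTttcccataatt
The same letters occurred in an untranslated region of 139 of 19553 canonical coding transcripts (0.711%), and a match is a description, not a shown binding site. SLC11A2, which is known to have an isoform with such an element, held no match to these letters, and gene counts do not separate its isoforms.

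Sequencing depth was between 12061295 and 16073698 counts per library, and values below are counts scaled to the library total (CPM) after TMM normalization. The targeted gene, CDO1, was at 14 ± 0.277 CPM in siCtrl cells (SD, n = 3), 2.5 ± 0.674 CPM in siCDO1A cells and 1.69 ± 0.974 CPM in siCDO1C cells. The siCDO1C group was uneven, with 1.09, 2.81 and 1.15 CPM in replicates 1, 2 and 3. The 8 prostate markers examined were present in every group, at summed levels of 5675 to 5825 CPM in siCtrl, 6604 to 6931 CPM in siCDO1A and 6086 to 6286 CPM in siCDO1C libraries. Of these 8 markers, 3 rose and 2 fell with siCDO1A (62.5%, where 14.8% of all genes tested changed), and 1 rose and 2 fell with siCDO1C (37.5%, where 4.77% did). With the batch number as a block, ERG with siCDO1A (edgeR adjusted p = 0.0509) and FOLH1 with siCDO1C (0.0729) no longer passed. Markers of stromal, endothelial and blood cells summed to 19.5 to 21.7, 21.9 to 24.5 and 16.5 to 19.3 CPM in the same order, mostly LUM, and 2 or 3 of the 10 were at 0 in each group. The part of these levels in the results was not tested.

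Two-sided tests by the edgeR quasi-likelihood method, with Benjamini-Hochberg adjustment over all 15555 genes, asked whether each siRNA changed the members. STEAP3 was higher with both siRNAs, by 1.86-fold and 1.65-fold. TFRC was higher by 1.14-fold with siCDO1A, and its 1.17-fold difference with siCDO1C did not pass the threshold of an adjusted p of 0.05. With siCDO1A, 2 of the 9 members tested rose (22.2%) and 0 fell, where 14.8% of all genes tested changed, 7.37% rising and 7.48% falling. With siCDO1C, 1 of 9 rose (11.1%) and 0 fell, where 4.77% of all genes changed, 2.27% rising and 2.5% falling. With no adjustment, 4 members lay above and 2 below siCtrl at p under 0.05 for siCDO1A, and 3 above and 1 below for siCDO1C. DESeq2 called STEAP3 and TFRC with each siRNA and 0 members lower, where it called 12.8% and 5.09% of all genes. The median log2 fold change of the 9 members was 0.03 with siCDO1A and 0.04 with siCDO1C and 0.01 and -0.00 over all genes tested. Both comparisons share the siCtrl libraries.

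**Figure D1:**
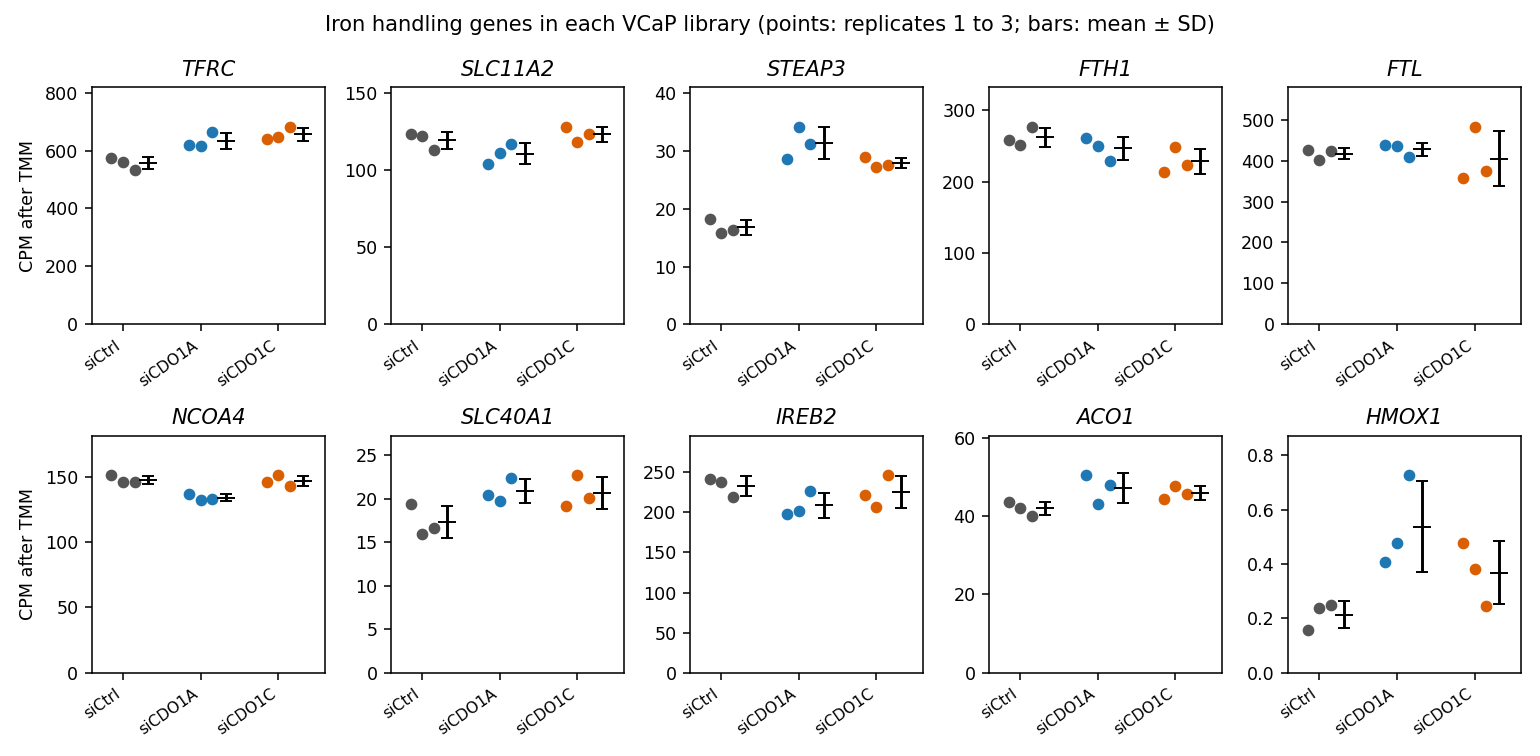
Level of each of the 10 iron genes in every library. Each panel has its own vertical axis in CPM after TMM scaling, starting at 0; points are replicates 1 to 3 from left to right, and the bar beside them is the mean ± SD (n = 3). The 6 STEAP3 points of the siRNA groups, from 27.3 to 34.2 CPM, lie above the siCtrl points, the highest of which is 18.3 CPM.

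STEAP3 (ENSG00000115107, hg38, chromosome 2, 119223831 to 119265652, plus strand) encodes the reductase that turns ferric into ferrous iron in the endosome after transferrin uptake. It was at 18.3, 15.8 and 16.4 CPM in siCtrl replicates 1 to 3. The siCDO1A libraries held 28.7, 34.2 and 31.2 CPM. The siCDO1C libraries held 29, 27.3 and 27.5 CPM. Every siRNA library was above every siCtrl library. The groups also did not overlap for 30.6% of all genes tested with siCDO1A and 24.2% with siCDO1C. The log2 fold change was 0.90 with siCDO1A (SE 0.0975, 95% interval 0.70 to 1.10, edgeR adjusted p = 2.2e-06) and 0.72 with siCDO1C (SE 0.101, 0.51 to 0.94, edgeR adjusted p = 8.0e-04). Among the genes that rose, STEAP3 ranked 80 of 1146 by log2 fold change with siCDO1A, where the median was 0.35, and 68 of 353 with siCDO1C, where it was 0.46. Only 1.9% of all genes tested rose with both siRNAs. The call held in 15 of 15 alternative analyses with each siRNA, with log2 fold changes of 0.83 to 0.96 and 0.68 to 0.79.

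TFRC (ENSG00000072274, hg38, chromosome 3, 196027183 to 196082189, minus strand) encodes the transferrin receptor, the entry point of transferrin iron. The search found the 4 hairpins printed above in its mRNA, and would miss elements that differ from the letters searched. TFRC was at 574, 561 and 533 CPM in siCtrl cells. In siCDO1A cells it was at 619, 615 and 663 CPM, and in siCDO1C cells at 640, 646 and 682 CPM. The groups did not overlap with either siRNA, but neither did those of 30.6% of all genes tested with siCDO1A and 24.2% with siCDO1C. TFRC thus differed by a log2 fold change of 0.19 with siCDO1A (SE 0.051, 95% interval 0.08 to 0.29, edgeR adjusted p = 0.0172), which ranked 1092 of 1146 among the genes that rose. With the batch number as a block the adjusted p was 0.0948, and without siCtrl replicate 2 or siCtrl replicate 3 it was 0.0697 and 0.0908. The call held in 11 of 15 alternatives. With siCDO1C the log2 fold change was 0.23 (SE 0.0688, 0.08 to 0.38, edgeR adjusted p = 0.0693), and it passed the threshold in 4 of 15 alternatives, among them the analysis without siCDO1C replicate 2 (0.25, adjusted p = 4.8e-04). The difference was larger in batch 3 (0.32 and 0.36) than in batch 1 (0.11 and 0.16) or batch 2 (0.13 and 0.20). Both batch 3 values were taken against the same library, siCtrl replicate 3, which held the lowest TFRC level of siCtrl (533 CPM). Whether the response depends on the batch was not tested.

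SLC11A2 (ENSG00000110911, hg38, chromosome 12, 50979401 to 51028566, minus strand) encodes DMT1, which carries ferrous iron out of the endosome. Its level was 123, 122 and 113 CPM with siCtrl, 104, 111 and 117 CPM with siCDO1A, and 128, 118 and 123 CPM with siCDO1C. These ranges overlapped between siCtrl and each siRNA. For SLC11A2 the log2 fold change was -0.10 with siCDO1A (95% interval -0.23 to 0.03, edgeR adjusted p = 0.307) and 0.04 with siCDO1C (-0.12 to 0.20, adjusted p = 0.831).

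FTH1 and FTL encode the ferritin heavy chain, which oxidizes iron for storage, and the light chain, which helps form the mineral core. FTH1 (ENSG00000167996, hg38, chromosome 11, 61959718 to 61967660, minus strand) was at 258, 251 and 277 CPM in siCtrl cells, 261, 250 and 229 CPM in siCDO1A cells and 214, 248 and 223 CPM in siCDO1C cells. The siCDO1C libraries all lay below the siCtrl libraries, by 0.27, 0.02 and 0.31 on the log2 scale in batches 1, 2 and 3, while the siCDO1A libraries overlapped them. The fitted log2 change of FTH1 was -0.09 with siCDO1A (95% interval -0.21 to 0.04, edgeR adjusted p = 0.365) and -0.20 with siCDO1C (-0.37 to -0.04, adjusted p = 0.151). FTL (ENSG00000087086, hg38, chromosome 19, 48965301 to 48966878, plus strand) was at 427, 402 and 423 CPM with siCtrl, 439, 435 and 409 CPM with siCDO1A, and 357, 483 and 376 CPM with siCDO1C. Replicate 2 of siCDO1C held the highest FTL value of the 9 libraries and the other siCDO1C libraries the lowest values. The fitted log2 change of FTL was 0.03 (95% interval -0.07 to 0.14, edgeR adjusted p = 0.71) and -0.05 (-0.25 to 0.15, adjusted p = 0.843).

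The ferritin values of siCDO1C turned on that library, in which CDO1 was also the highest of its group (2.81 CPM beside 1.09 and 1.15 CPM). Without siCDO1C replicate 2, FTH1 was lower than in siCtrl cells (log2 fold change -0.27, edgeR adjusted p = 7.2e-04) and so was FTL (-0.19, adjusted p = 0.00727). In that analysis 13.3% of all genes tested changed, in place of 4.77%. The part of the uneven reduction of CDO1 in this was not tested. Ferritin genes have many processed copies, and the authors' handling of reads that map to several places is not stated. The table lists 25 FTH1 pseudogenes, 12 of them with a count, which took 2.27% to 2.88% of the counts of FTH1 and its pseudogenes in a library, and 16 FTL pseudogenes, 4 of them with a count, which took 0.0727% to 0.197%. Summing them with the parent gene moved the ratio of group means by less than the spread between libraries.

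NCOA4 (ENSG00000266412, hg38, chromosome 10, 46005088 to 46030714, minus strand) encodes the receptor that delivers ferritin to the lysosome. It was at 151, 146 and 146 CPM with siCtrl, 137, 132 and 133 CPM with siCDO1A, and 146, 151 and 143 CPM with siCDO1C. The 3 siCDO1A libraries were below the siCtrl libraries by the same 0.14 on the log2 scale in each batch, and the siCDO1C libraries overlapped them. For NCOA4 the log2 fold change was -0.14 with siCDO1A (SE 0.0554, 95% interval -0.26 to -0.03), which did not pass (edgeR adjusted p = 0.0945), and -0.02 with siCDO1C (-0.17 to 0.13, adjusted p = 0.917).

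SLC40A1 (ENSG00000138449, hg38, chromosome 2, 189560579 to 189583758, minus strand) encodes ferroportin, the iron exporter. It was at 19.4, 16 and 16.6 CPM in siCtrl cells, 20.5, 19.8 and 22.4 CPM in siCDO1A cells and 19.2, 22.7 and 20.1 CPM in siCDO1C cells. All siCDO1A libraries were above the siCtrl libraries, and 1 siCDO1C library, replicate 1, was below siCtrl replicate 1. For SLC40A1 the log2 fold change was 0.27 with siCDO1A (SE 0.104, 95% interval 0.06 to 0.49, edgeR adjusted p = 0.085) and 0.25 with siCDO1C (SE 0.115, 0.00 to 0.49, adjusted p = 0.268). With the trend of GC content removed, the siCDO1A difference was 0.32 and passed the threshold (edgeR adjusted p = 0.019, and 0.0266 with the batch as a block).

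IREB2 and ACO1 encode the iron regulatory proteins IRP2 and IRP1, the latter an aconitase when it holds an iron-sulfur cluster. IREB2 (ENSG00000136381, hg38, chromosome 15, 78437431 to 78501456, plus strand) was at 242, 238 and 219 CPM with siCtrl, 198, 202 and 226 CPM with siCDO1A, and 222, 207 and 246 CPM with siCDO1C. In batches 1 and 2 the siCDO1A library was lower than siCtrl, by 0.29 and 0.23 on the log2 scale, and in batch 3 it was higher by 0.04. IREB2 thus had a fitted log2 change of -0.16 with siCDO1A (95% interval -0.28 to -0.03, edgeR adjusted p = 0.0904) and -0.06 with siCDO1C (-0.23 to 0.12, adjusted p = 0.776). The siCDO1A difference passed without siCDO1A replicate 3 (-0.22, adjusted p = 0.00162) and without siCtrl replicate 3 (-0.20, adjusted p = 0.0428). ACO1 (ENSG00000122729, hg38, chromosome 9, 32384603 to 32454769, plus strand) was at 43.6, 42.2 and 40.1 CPM with siCtrl, 50.4, 43 and 48 CPM with siCDO1A, and 44.4, 47.7 and 45.6 CPM with siCDO1C. Each siRNA library was above the siCtrl library of its batch. For ACO1 the fitted log2 change was 0.17 with siCDO1A (95% interval 0.00 to 0.33, edgeR adjusted p = 0.178), or 0.20 with the GC trend removed (adjusted p = 0.0468, or 0.0738 with the batch also as a block), and 0.12 with siCDO1C (-0.05 to 0.30, adjusted p = 0.472).

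HMOX1 (ENSG00000100292, hg38, chromosome 22, 35380361 to 35394214, plus strand) encodes heme oxygenase 1, the stress-induced enzyme that frees iron from heme. It had 2, 3 and 4 counts in siCtrl libraries, 5, 7 and 11 in siCDO1A libraries and 7, 5 and 3 in siCDO1C libraries. In CPM these are 0.156 to 0.248, 0.409 to 0.726 and 0.247 to 0.479, near the 0.187 to 0.249 CPM that 3 counts are worth in these libraries. The siCDO1A libraries were above the siCtrl libraries and the siCDO1C libraries overlapped them. Relative to the library totals, the summed counts of 9, 23 and 15 gave a ratio to siCtrl of 2.5 for siCDO1A (95% interval 1.11 to 6.13, Clopper-Pearson) and of 1.73 for siCDO1C (0.709 to 4.48), intervals that cover counting error only. Without the filter on low counts the edgeR log2 fold change was 1.30 (adjusted p = 0.378) and 0.76 (adjusted p = 0.728). HMOX1 was thus the least abundant member in every group, and its difference did not pass the test at this depth.

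**Figure D2:**
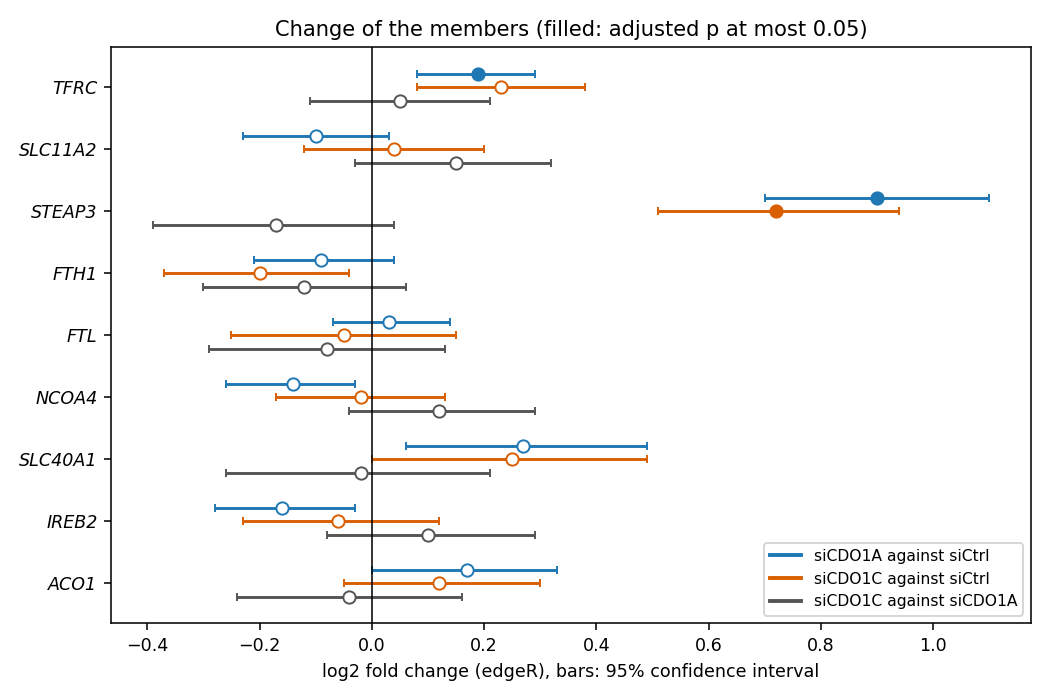
Log2 fold change of the 9 members tested, with 95% confidence intervals from edgeR, for siCDO1A against siCtrl (blue), siCDO1C against siCtrl (orange) and siCDO1C against siCDO1A (grey). Filled points have an adjusted p of at most 0.05: STEAP3 with both siRNAs (0.90 and 0.72) and TFRC with siCDO1A (0.19); every interval between the siRNAs includes 0.

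The siRNAs were also compared with each other, since a gene past the threshold with 1 of them is not thereby shown to differ. In this comparison, 0 of 9 members passed the edgeR threshold, 0 had an unadjusted p under 0.05 and DESeq2 called 0, where 0.444% of all genes tested changed by edgeR and 0.669% by DESeq2. For STEAP3 the log2 difference of siCDO1C from siCDO1A was -0.17 (95% interval -0.39 to 0.04, edgeR adjusted p = 0.795). For TFRC it was 0.05 (-0.11 to 0.21, adjusted p = 0.968), so the interval holds a siCDO1C level up to 1.16 times the siCDO1A level. FTH1 differed by -0.12 (-0.30 to 0.06, adjusted p = 0.882) and FTL by -0.08 (-0.29 to 0.13, adjusted p = 0.956), or by -0.23 without siCDO1C replicate 2 (adjusted p = 0.0491, where 2.87% of all genes changed). The siCDO1C libraries did not overlap those of siCDO1A for SLC11A2 (0.15, adjusted p = 0.754) and NCOA4 (0.12, adjusted p = 0.823), which were higher with siCDO1C, beside 12.7% of all genes tested. The other members, SLC40A1, IREB2 and ACO1, differed by -0.02, 0.10 and -0.04.

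Levels of different genes were compared as CPM per kilobase of exonic length. In siCtrl cells FTL was highest at 475 ± 15.7 CPM per kilobase (SD, n = 3), followed by FTH1 at 129 ± 6.49, TFRC at 70.5 ± 2.71, NCOA4 at 36.2 ± 0.707, IREB2 at 21.5 ± 1.12, SLC11A2 at 11.8 ± 0.527 and ACO1 at 5.55 ± 0.23. The ferritin genes FTL and FTH1 thus held more mRNA per length than the transferrin receptor gene TFRC, while NCOA4 held less than TFRC. The exporter and the endosomal reductase were low. SLC40A1 (4 ± 0.429), STEAP3 (3.69 ± 0.281) and HMOX1 (0.089 ± 0.0211) closed the order. The libraries of neighbours in this order did not overlap, other than those of SLC40A1 and STEAP3. With siCDO1A and siCDO1C, STEAP3 stood 7th, at 6.87 ± 0.603 and 6.13 ± 0.2 CPM per kilobase, above SLC40A1 (4.83 and 4.77) and overlapping ACO1 (6.24 and 6.08).

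**Figure D3:**
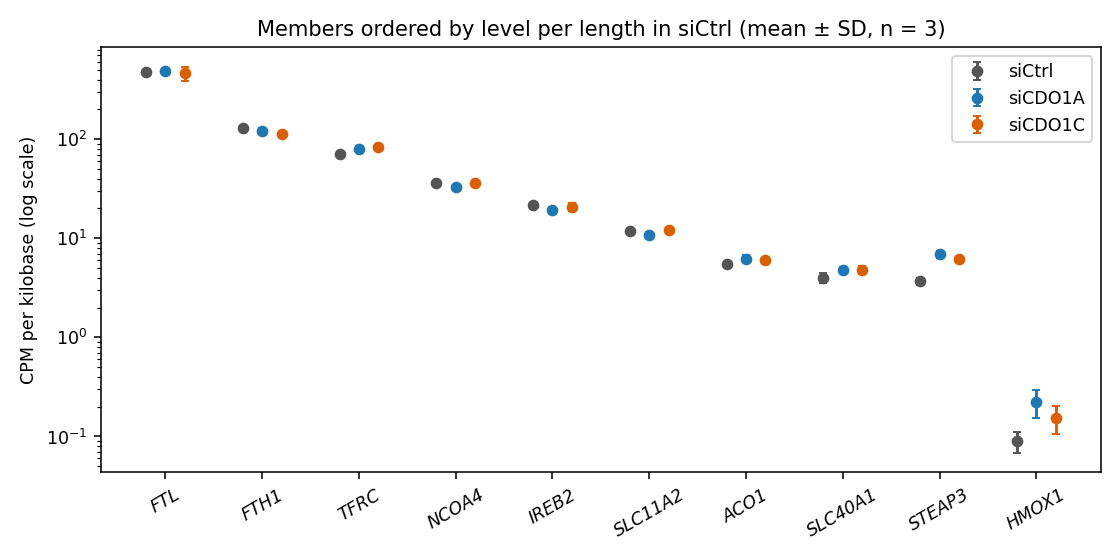
Mean level of the 10 genes in CPM per kilobase of exonic length, on a log scale, with SD over 3 libraries, ordered by the siCtrl mean. FTL is at the top with 475 and HMOX1 at the bottom with 0.089 in siCtrl cells. By its mean, STEAP3 moves from 9th to 7th with both siRNAs, past SLC40A1 and ACO1, but its libraries overlap those of ACO1 in both siRNA groups.

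Ratios of members within a library need no scaling between libraries, and were chosen after the values were seen. TFRC over FTH1, receptor over storage, was 2.23, 2.24 and 1.93 in siCtrl libraries, 2.37, 2.46 and 2.89 in siCDO1A libraries and 2.99, 2.6 and 3.06 in siCDO1C libraries. Every siRNA library was above every siCtrl library. FTH1 over FTL was 0.604, 0.625 and 0.654 with siCtrl, 0.595, 0.575 and 0.561 with siCDO1A, and 0.601, 0.514 and 0.592 with siCDO1C, and every siRNA library was below every siCtrl library. The two-sided exact permutation p was 0.1 for each ratio and siRNA, the smallest that 3 libraries against 3 can give.

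**Figure D4:**
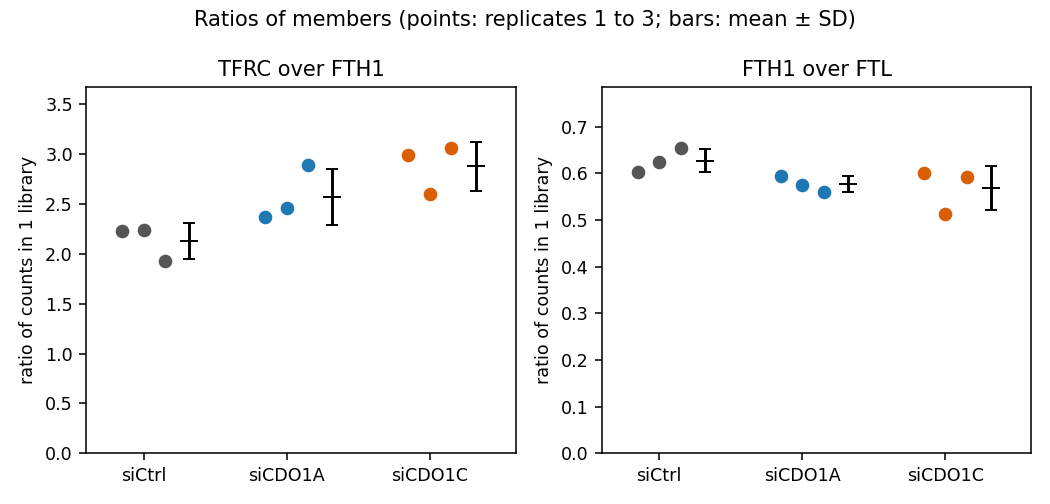
Ratio of the counts of TFRC to FTH1 (left) and of FTH1 to FTL (right) in each library, on axes that start at 0; points are replicates 1 to 3 and bars the mean ± SD (n = 3). The mean of TFRC over FTH1 is 2.13 in siCtrl, 2.57 in siCDO1A and 2.88 in siCDO1C libraries.

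Among the genes whose pattern over the 9 libraries was most like that of TFRC, by the Pearson correlation of log2(CPM + 1) among 11332 genes, were SPOPL (0.99), SOCS4 (0.989) and TP53INP1 (0.983). Among those most like FTH1 were CDK2AP2 (0.978) and ANAPC16 (0.954). For HMOX1 these included NSG2 (0.942) and AC006504.1 (0.923), against a pattern of 2 to 11 counts. These are the highest of many correlations over libraries that share groups and depth, and are given as a description.

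The wider iron genes are 105 further genes in 9 roles, 88 of them tested. With siCDO1A 8 rose and 6 fell (15.9% of those tested, beside 14.8% of all genes), and with siCDO1C 1 rose and 2 fell (3.41%, beside 4.77%). The share changed was thus close to that of all genes with each siRNA. The siCDO1A count of 14 became 7 with the batch as a block, where 8.73% of all genes changed. It was 20 without siCDO1A replicate 3 (22.2% of all genes) and 6 to 9 without any other single library (8.31% to 13.1%). The siCDO1C count of 3 became 7 without siCDO1C replicate 2, where 13.3% of all genes changed. It was 2 without siCDO1C replicate 3 (3.51% of all genes) and 1 without any other single library (1.69% to 2.37%). Between the siRNAs 0 of 88 passed by edgeR or DESeq2, with 4 lower in siCDO1C at an unadjusted p under 0.05. Without siCDO1C replicate 2, 4 passed, where 2.87% of all genes changed.

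Of 13 other uptake genes tested, 2 rose with siCDO1A (STEAP1 and SLC39A8) and 1 fell with siCDO1C (STEAP4). The shares changed were 15.4% and 7.69%, beside 14.8% and 4.77% of all genes tested. STEAP1, a prostate surface antigen of the STEAP3 family, was at 118, 131 and 116 CPM with siCtrl, 180, 164 and 177 CPM with siCDO1A, and 139, 177 and 143 CPM with siCDO1C. Its groups did not overlap with either siRNA, and replicate 2 of siCDO1C was again unlike the other siCDO1C libraries. In the edgeR fit STEAP1 was at a log2 fold change of 0.51 with siCDO1A (SE 0.0615, edgeR adjusted p = 8.3e-06) and 0.32 with siCDO1C (SE 0.0907, adjusted p = 0.0533, or 0.0414 with the batch as a block and 0.0147 without siCDO1C replicate 2). STEAP4, an androgen-responsive metalloreductase of the same family, was at 17, 17.1 and 17.5 CPM with siCtrl, 14, 13.6 and 15 CPM with siCDO1A, and 8.41, 10.6 and 10.3 CPM with siCDO1C. It fell with siCDO1C (log2 fold change -0.83, SE 0.124, edgeR adjusted p = 0.00114, held in 15 of 15 alternatives) and was at -0.28 with siCDO1A (adjusted p = 0.0796, or 0.0494 without siCDO1A replicate 3). STEAP2, the remaining member of the family, was at 0.09 and 0.11 and did not pass, and its siCDO1A value was 0.14 with the GC trend removed (edgeR adjusted p = 0.0483) and -0.03 without siCDO1A replicate 3 (0.68). The zinc, manganese and iron importer gene SLC39A8 was at 0.39 with siCDO1A (adjusted p = 0.0393), a call that held without siCDO1A replicate 1 but not without any other single library or with the batch as a block (0.0787), and at -0.07 with siCDO1C.

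**Figure D5:**
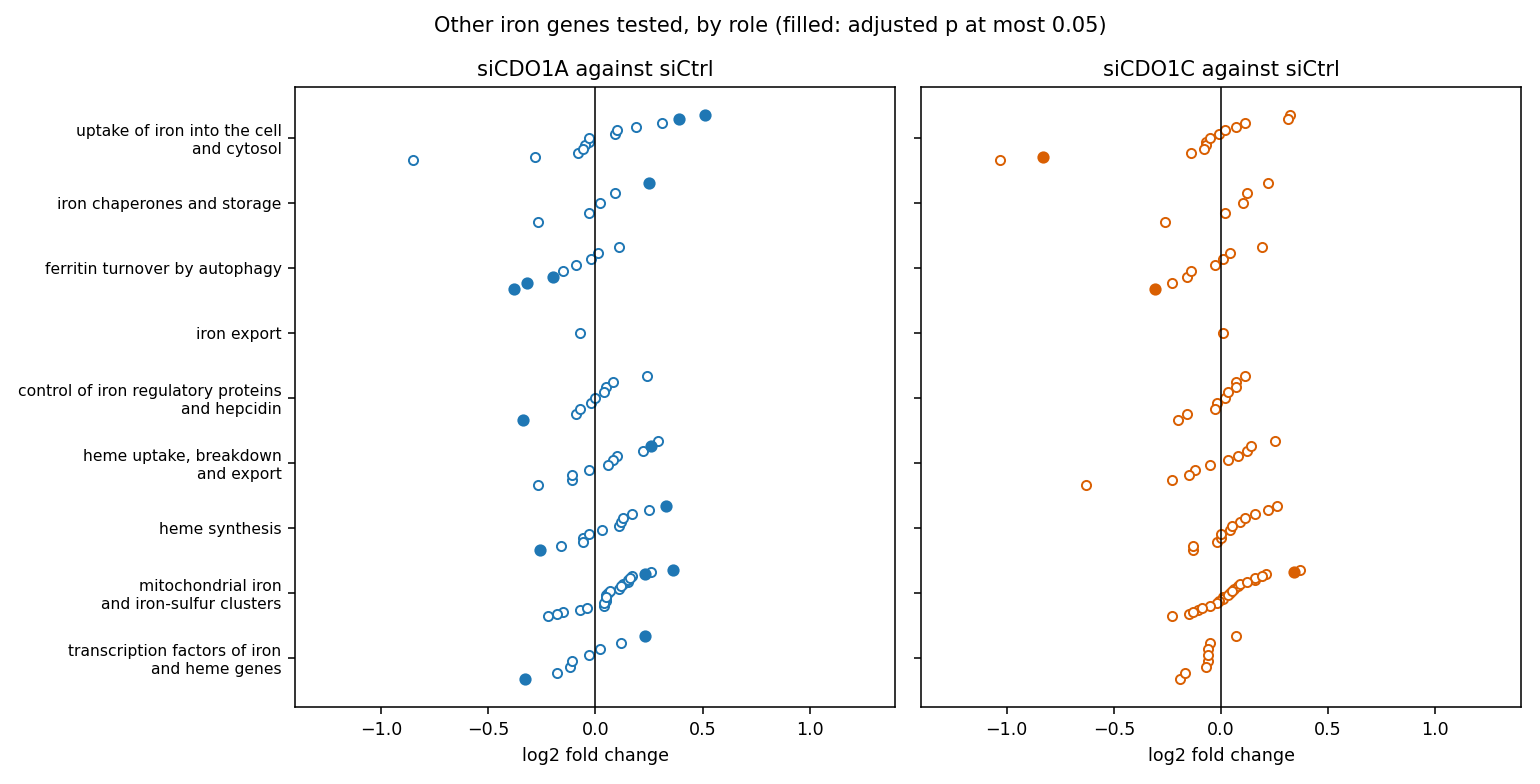
Log2 fold change of the 88 other iron genes tested, 1 point per gene, by role, for siCDO1A (left) and siCDO1C (right) against siCtrl. Filled points have an adjusted p of at most 0.05; 14 are filled for siCDO1A and 3 for siCDO1C.

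In ferritin turnover by autophagy, 3 of 8 genes fell with siCDO1A (37.5%, where 7.48% of all genes fell) and 1 with siCDO1C (12.5%, where 2.5% did). TAX1BP1, an autophagy receptor that works with NCOA4, was at 92.3, 107 and 91.5 CPM with siCtrl, 75, 71.2 and 77.1 CPM with siCDO1A, and 76.1, 82.9 and 77.3 CPM with siCDO1C. The siRNA libraries all lay below the siCtrl libraries. Its log2 fold change was -0.38 with siCDO1A (SE 0.0705, edgeR adjusted p = 9.4e-04) and -0.31 with siCDO1C (SE 0.0823, adjusted p = 0.0459). The siCDO1C call was lost with the batch as a block (adjusted p = 0.0604) and without any single library other than siCDO1C replicate 2 (0.0953 to 0.281). ATG7 (-0.32, adjusted p = 0.0149) and RB1CC1 (-0.20, adjusted p = 0.0349), both of the core autophagy machinery, fell with siCDO1A. The ATG7 call was lost without siCDO1A replicate 1, siCtrl replicate 1 or siCtrl replicate 2, and that of RB1CC1 also without siCDO1A replicate 2 and with the batch as a block (adjusted p = 0.129). The median over the 8 genes was -0.12 and -0.08, beside 0.01 and -0.00 over all genes.

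Of 23 genes of mitochondrial iron and iron-sulfur clusters, 2 rose with siCDO1A and 1 with siCDO1C, with medians of 0.06 and 0.04. The shares changed were 8.7% and 4.35%, beside 14.8% and 4.77% of all genes tested. SLC25A37, which encodes mitoferrin 1, the importer of iron into mitochondria, was at 49.6, 49 and 48.7 CPM with siCtrl, 61.2, 67.4 and 60.4 CPM with siCDO1A, and 62.3, 59.9 and 65 CPM with siCDO1C. Every siRNA library was above every siCtrl library. The log2 fold change was 0.36 (SE 0.0718, edgeR adjusted p = 0.00179) and 0.34 (SE 0.0785, adjusted p = 0.0227), the latter lost without any single library other than siCDO1C replicate 2 (0.0727 to 0.125).

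In heme synthesis, with 12 genes tested, FECH, which inserts iron into protoporphyrin, rose with siCDO1A from 80 ± 2.39 to 100 ± 1.78 CPM (log2 fold change 0.33, SE 0.061, edgeR adjusted p = 9.4e-04) and was at 0.11 with siCDO1C (adjusted p = 0.462). ALAD, an early enzyme of the pathway, was at -0.26 with siCDO1A (adjusted p = 0.0301), a call that held without siCDO1A replicate 3 but not without any other single library or with the batch as a block (0.106). Of 10 genes of heme uptake, breakdown and export, POR, the reductase that feeds electrons to heme oxygenase, was at 0.26 with siCDO1A (adjusted p = 0.0107, lost without siCDO1A replicate 1 or siCtrl replicate 1 and, at 0.0522, with the batch as a block) and at 0.14 with siCDO1C. BACH1, the heme-binding repressor of HMOX1 and the ferritin genes, was at 117, 105 and 102 CPM with siCtrl, 84.8, 79.7 and 94.1 CPM with siCDO1A, and 97.7, 88.6 and 99.3 CPM with siCDO1C. The libraries of each siRNA lay below those of siCtrl. The fitted log2 change of BACH1 was -0.33 with siCDO1A (SE 0.0717, edgeR adjusted p = 0.00374, held in 15 of 15 alternatives) and -0.19 with siCDO1C (adjusted p = 0.216). HIF1A, of the same list of 8 transcription factors, was at 0.23 with siCDO1A (adjusted p = 0.0361, lost without replicates 1 or 3 of siCDO1A or of siCtrl and, at 0.113, with the batch as a block) and -0.06 with siCDO1C.

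Among 9 genes that control the iron regulatory proteins and hepcidin, NEO1, a co-receptor of BMP signaling, fell with siCDO1A (log2 fold change -0.34, SE 0.0693, edgeR adjusted p = 0.00195). The call held in 14 of 15 alternatives, among which the highest adjusted p was 0.129. NEO1 was at -0.20 with siCDO1C (adjusted p = 0.549), with 62.9, 42.1 and 69.9 CPM in the siCDO1C replicates. FBXL5, the ligase that removes IRP2 when iron is replete, was at -0.09 and -0.02. Of 5 chaperone and storage genes, PCBP4 was at 0.25 with siCDO1A (adjusted p = 0.0326, held without siCDO1A replicate 3 but not without any other single library or, at 0.111, with the batch as a block) and at 0.22 with siCDO1C (adjusted p = 0.163). PROM2, which is known to export ferritin in vesicles and was the 1 other export gene tested, was at -0.07 and 0.01.

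Of 8 tested genes known to carry an iron responsive element, members included, 3 rose with siCDO1A, TFRC and CDC14A among them. These are 37.5%, where 7.37% of all genes tested rose. With siCDO1C 0 passed by edgeR, where 3 lay above and 1 below siCtrl at an unadjusted p under 0.05 and DESeq2 called TFRC. CDC14A, a phosphatase with the element in its 3′ untranslated region, was at 11.4, 8.19 and 9.49 CPM with siCtrl, 14.2, 13.8 and 17.8 CPM with siCDO1A, and 15, 12.5 and 13.8 CPM with siCDO1C, without overlap. Its log2 fold change was 0.66 with siCDO1A (SE 0.138, edgeR adjusted p = 0.00258) and 0.50 with siCDO1C (SE 0.143, adjusted p = 0.057, or 0.0416 with the batch as a block and 0.00573 without siCDO1C replicate 2). The element was found in 1 of the coding transcripts searched for CDC14A, and gene counts do not separate its isoforms. The element of CDC14A is shown for comparison with those of the members, in the same form.
CDC14A, 3′ untranslated region, 2543 to 2559: tatttacatgtaCAGTGTtacattatata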

How the data were processed

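RNA-seq of VCaP cells was analysed from 9 libraries. The authors deposited raw gene counts, which were taken unchanged. According to the paper and the submitters' processing notes, poly(A) RNA was made into directional paired-end libraries, reads were aligned to hg38 with HISAT2 2.0.5 and counted with featureCounts, while the settings for strand and for reads with several matches are not given in the sources used here. 3 columns of the table match no sample here and were not used. The gene lengths deposited in the table gave levels per kilobase.

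Genes were kept by filterByExpr of edgeR 4.0.16 (R 4.3.3, minimum count 10), scaled with TMM and tested with the quasi-likelihood test on the 6 libraries of each comparison, as the study compared each siRNA independently with siCtrl. An adjusted p of at most 0.05 counted as changed. The method was tested on simulated counts with the same dispersion for every gene. They held no GC trend and no uneven library, so they do not show how the test behaves with those. Alternatives were DESeq2 1.42.0, RLE size factors, 1 fit of all 9 libraries, no filter, at least 10 counts in every library, the batch number as a block, legacy=FALSE and leaving out each library. Added after seeing the data were a correction for GC content (known for 99.3% of genes tested), with and without the block, and ratios within libraries. The exact permutation test served for single values.

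The labels give the replicate number as a batch. The main tests did not use it, and only the alternatives with a block and the differences per batch took it to pair the libraries. Correlations of their deviations from the group means over 11332 genes with at least 5 CPM were -0.208, 0.0541 and -0.137 for number 1 (siCDO1A with siCtrl, siCDO1C with siCtrl, siCDO1C with siCDO1A), -0.092, -0.00622 and 0.13 for number 2, and -0.384, -0.283 and 0.385 for number 3. The HMOX1 intervals from summed counts cover counting error only, while the edgeR intervals also take in the spread between libraries. In bulk RNA, fewer cells of a type and less RNA per cell cannot be told apart.

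The members and lists were chosen with earlier results of these data known. Beside the 10 members, the genes named are, per list, those changed in the same direction with both siRNAs or else the one with the smallest p, and the 3 genes most like TFRC, FTH1 and HMOX1. STEAP2, STEAP4, SLC39A8, ATG7, RB1CC1, ALAD, HIF1A, FBXL5, ERG, LPCAT3 and AIFM2 fall outside this rule and were picked with their values in view. Some genes that the rule or a count would name are not reported here. The hairpins come from GENCODE transcripts on GRCh37, and gene coordinates from the deposited table.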

Additional observations from a re-analysis of the deposited data

Results flagged for a closer look

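SLC7A11, the cystine importer whose loss is known to sensitize cells to ferroptosis, differed between the siRNAs in a direct test. It was at 43.5, 42.9 and 38.4 CPM in siCtrl libraries, 24.2, 23.3 and 28 CPM in siCDO1A libraries and 14.8, 12.3 and 16.3 CPM in siCDO1C libraries, so the 3 groups did not overlap. The log2 fold change of siCDO1C from siCDO1A was -0.80 (SE 0.126, edgeR adjusted p = 0.0043), where 0.444% of all genes tested changed. It held in 14 of 15 alternatives, and was -0.70 with an adjusted p of 0.0877 without siCDO1A replicate 3. Against siCtrl it fell with siCDO1A by a log2 fold change of -0.72 (edgeR adjusted p = 1.5e-05), and siCDO1C gave -1.53 (edgeR adjusted p = 2.8e-06).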

How the results depend on the processing

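Of the alternative values of the members' log2 fold changes and that of CDO1, 422 kept their direction and side of the threshold, 12 passed it in addition, 4 fell short of it and 11 changed sign. The number of members changed with siCDO1A (2) was 1 in a fit of all 9 libraries (8.8% of all genes changed) and 1 with the replicate block (8.73%). It was 4 with the GC trend removed (19.5%) and 1 to 3 without single libraries (8.31% to 22.2%). With siCDO1C (1) it was 2 in the fit of all 9 libraries (6.35%), with DESeq2 (5.09%) and with the GC trend removed (5.61%). Without single libraries it was 1 to 4 (1.69% to 13.3%). Between the siRNAs (0) it was 0 to 1 without single libraries (0.116% to 2.87%). The count of wider iron genes with siCDO1A (14) was 7 in the fit of all 9 libraries, 7 with the replicate block and 6 to 20 without single libraries. With siCDO1C (3) the wider count was 1 to 7 without single libraries. The shares of all genes in these settings are those just given. Between the siRNAs (0) the wider count was 1 in the fit of all 9 libraries (0.823% of all genes changed). It was 2 with the GC trend removed and the replicate block (1.02%), and 0 to 4 without single libraries (0.116% to 2.87%). The estimates that changed sign were near 0. With the GC trend removed, with or without the block, FTL was at -0.01 with siCDO1A, and with siCDO1C NCOA4 was at 0.01 and PROM2 at -0.02. Without single libraries, the estimates with siCDO1C ran from -0.19 to 0.04 for FTL, -0.04 to 0.00 for NCOA4, -0.13 to 0.01 for IREB2 and -0.07 to 0.10 for PROM2, and those between the siRNAs from -0.23 to 0.00 for FTL, -0.10 to 0.05 for SLC40A1 and -0.10 to 0.01 for ACO1. The cause of these changes was not tested. Beside the calls given with their blocked values in the text above, the replicate block, added to the fit without GC correction, changed no other call of a gene named there. Added to the fit with the GC trend removed, it ended the call of TFRC with siCDO1C (adjusted p from 0.0298 to 0.0752) and of ACO1 with siCDO1A (0.0468 to 0.0738). Depth limits HMOX1, at 2 to 11 counts per library.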

Other observations

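Of 10 ferroptosis genes outside iron handling, 3 fell with siCDO1A (30%, where 7.48% of all genes tested fell) and 1 fell with siCDO1C (10%, where 2.5% did). At an unadjusted p under 0.05, 3 others lay above siCtrl with siCDO1A. Beside SLC7A11, those that fell with siCDO1A were LPCAT3, which loads polyunsaturated fatty acids into phospholipids (log2 fold change -0.34, edgeR adjusted p = 0.00437), and AIFM2, which encodes the coenzyme Q reductase FSP1 (-0.41, adjusted p = 0.0178, lost without siCDO1A replicate 1 or siCtrl replicate 3). With siCDO1C they were at -0.22 and -0.35 (adjusted p = 0.298 and 0.116), and AIFM2 passed without siCDO1C replicate 2 (adjusted p = 0.0487). The median over the 10 genes was 0.01 with siCDO1A and -0.10 with siCDO1C.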
